A study of Mus musculus with 9 samples.

Results

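Axon guidance ligands and receptors are the genes of 4 signalling systems: semaphorins with plexins and neuropilins, ephrins with Eph receptors, Slits with Robos, and netrins with the Unc5 and DCC families. All protein-coding genes of these families in the deposited table were taken by symbol, from the numbered semaphorins to Dcc and Neo1, which gave 69 genes of 49672 rows. The rule uses names and no measured value, although the families were picked with earlier results of these data known. The samples were sorted by flow cytometry from the epidermis of newborn mice (postnatal day 0) that all carried the Sox2-GFP reporter. The GFP-positive sort holds Merkel cells, which sense light touch in the skin (3 libraries). The control is basal keratinocytes, sorted as GFP-negative cells positive for both SCA1 and CD49F (6 libraries). Each of sample numbers 1 to 3 has 1 Merkel and 2 basal libraries, called here its first and second basal library. The labels do not say how these 2 differ, how the reporter was built, or what a sample number stands for (1 mouse or several). The p-values therefore measure the spread between numbers, and some of that spread may be technical.

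Guidance molecules steer growing axons by attraction or repulsion. Many of them also act between epithelial cells, blood vessels and immune cells. Semaphorins are secreted or membrane-bound ligands. Plexins are their signalling receptors, and neuropilins bind the secreted class 3 semaphorins together with plexins. Ephrins are held in the cell membrane and signal on contact, the A type through a lipid anchor and the B type through a transmembrane protein. Slits are secreted ligands of Robo receptors, and netrins bind DCC, neogenin (Neo1) and the Unc5 receptors.

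Levels are TPM, a relative abundance that corrects for gene length and allows genes to be compared with each other. TPM keeps no read count, so the depth behind a value is unknown and low values are the least precise. Of the 69 genes 50 passed the filter on low values (1 TPM or more in at least 3 of 6 values, the 2 basal libraries of a number being averaged). A gene was called at a limma adjusted p under 0.05 together with a difference of 2-fold or more on the log2(TPM + 1) scale, which understates changes of genes near 0. By this rule 6 genes were higher in Merkel cells: Sema3e, Slit2, Epha5, Robo2, Ephb1 and Unc5c. Another 3 were lower: Sema3f, Sema3c and Ntn4. These are 12% and 6.0% of the 50, against 6.79% and 5.27% of all 13822 genes tested, and the count of lower genes is thus near the background. Smaller differences at an adjusted p under 0.05 were found in 6 further genes upward and 16 downward. With them the 50 genes came to 24.0% higher and 38.0% lower, against 13.2% and 28.5% of all genes tested. The median log2 fold change of the 50 was -0.13, beside -0.15 over all genes tested, and scaling by median ratios moved both to near 0 (0.03 and 0.01). In sorted pools, fewer cells of a type and less RNA per cell cannot be told apart.

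**Figure D1:**
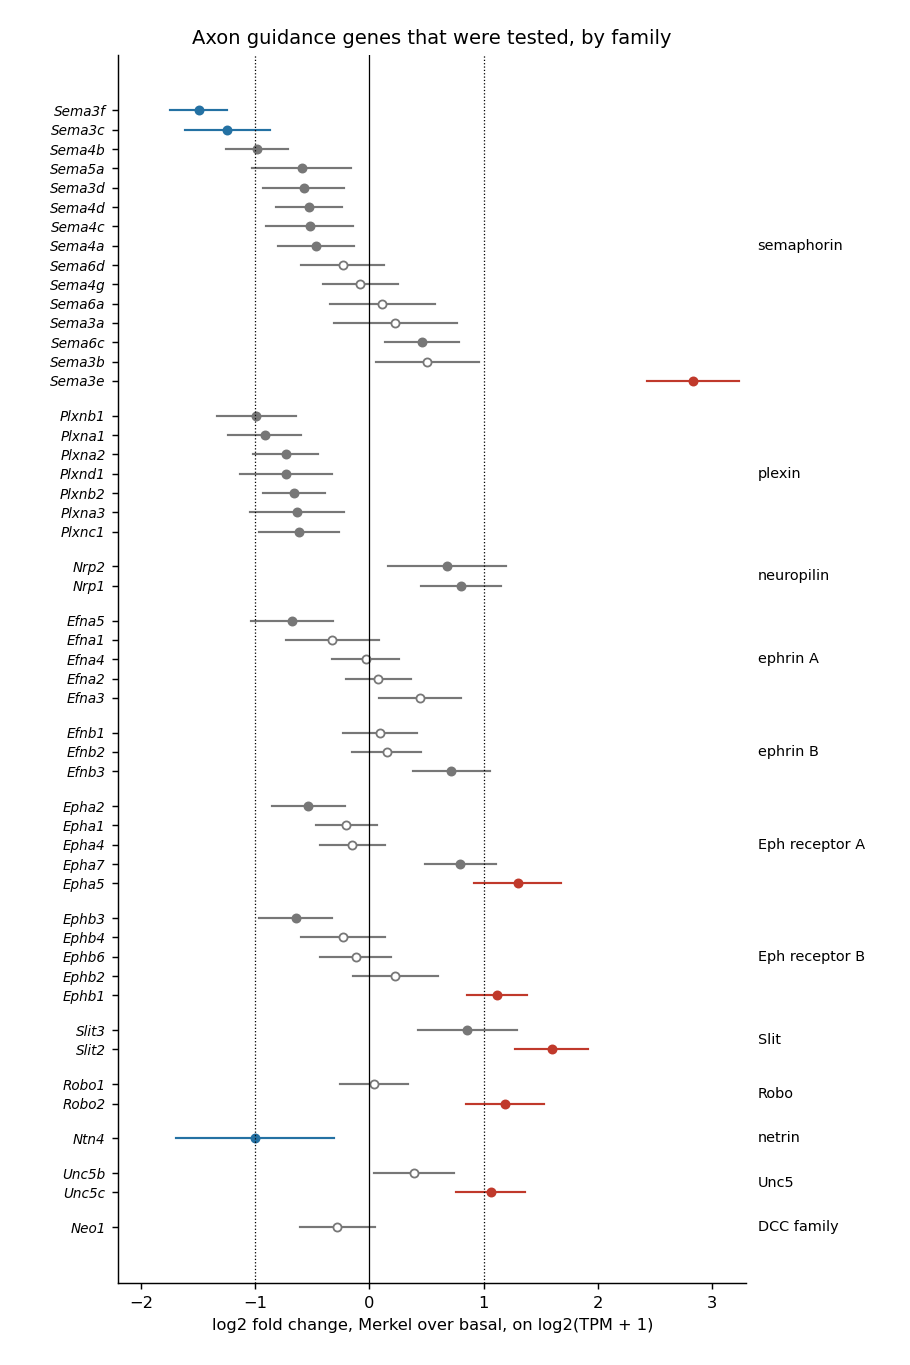
Log2 fold change of the 50 tested guidance genes, Merkel over basal, with the 95% confidence interval of the limma fit, grouped by family; filled points have an adjusted p under 0.05, red points were called higher and blue points lower, and dotted lines mark a 2-fold difference. Sema3e lies at 2.83, beyond all other members, and the 7 plexins lie between -0.99 and -0.62.

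Of the 6 genes called higher, 4 had basal values under the filter level, and they were tested only because all 3 Merkel values reached it (Epha5, Ephb1, Slit2 and Unc5c). For these the call is largely set by the filter. The call of Sema3e and that of Robo2 do not have this limit. Epha5, Epha7, Robo1 and Dcc, which had been proposed as the markers of this group of genes, gave 4 different outcomes: Epha5 was called, Epha7 differed by less than 2-fold, Robo1 did not pass the test, and Dcc was too low to test.

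The upstream sequence of the genes that were higher in Merkel cells shows how differently composed their start regions are. RefSeq (GRCm38.p6, the same build as mm10) holds a start for all 6, and for 4 this is also the start of the gene in GENCODE M21. The 250 bases before that start are printed for these 4, 5′ to 3′ on the gene's strand. Capitals mark an E-box (CANNTG, the general letters bound by basic helix-loop-helix factors such as ATOH1) or AATTAAT on either strand (letters found in sites described for POU4F factors). Also searched on both strands was the SOX-type ACAAAG. The E-box form CAGCTG was counted separately, as was the form CAGATG, and both are also matches of the general letters. The windows lie at chr5:14025026-14025275 (plus strand) for Sema3e, chr16:74411826-74412075 (minus) for Robo2, chr9:102354694-102354943 (minus) for Ephb1 and chr5:84417383-84417632 (minus) for Epha5.
Sema3e: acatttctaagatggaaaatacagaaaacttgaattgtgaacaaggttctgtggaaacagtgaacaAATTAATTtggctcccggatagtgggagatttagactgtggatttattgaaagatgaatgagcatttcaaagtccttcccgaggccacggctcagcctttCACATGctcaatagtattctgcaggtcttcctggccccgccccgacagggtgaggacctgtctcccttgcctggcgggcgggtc
Robo2: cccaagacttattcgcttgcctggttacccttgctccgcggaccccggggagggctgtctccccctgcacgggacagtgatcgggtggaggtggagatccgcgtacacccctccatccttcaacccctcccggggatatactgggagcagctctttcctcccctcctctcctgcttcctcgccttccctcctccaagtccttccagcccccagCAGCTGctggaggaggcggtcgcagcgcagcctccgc
Ephb1: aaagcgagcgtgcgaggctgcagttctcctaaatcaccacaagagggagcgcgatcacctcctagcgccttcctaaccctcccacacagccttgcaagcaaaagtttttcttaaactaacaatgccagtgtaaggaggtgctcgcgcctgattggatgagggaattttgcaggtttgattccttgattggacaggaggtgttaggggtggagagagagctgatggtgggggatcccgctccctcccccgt
Epha5: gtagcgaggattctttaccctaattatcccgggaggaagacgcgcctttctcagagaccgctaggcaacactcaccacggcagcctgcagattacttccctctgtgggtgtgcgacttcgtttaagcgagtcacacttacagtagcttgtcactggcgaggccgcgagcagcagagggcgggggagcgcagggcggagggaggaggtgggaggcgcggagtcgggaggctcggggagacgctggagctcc

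The Sema3e window had the lowest GC content of the 4, 48.0%, with 7 CpG pairs, and Epha5 had 62.4% with 20 CpG pairs. Robo2 had 65.6% and Ephb1 54.0%, against a median of 52.4% over all 32851 RefSeq windows of this length. Sema3e held the run AATTAATT, which matches the POU4F-type letters once on each strand, and these letters occur in 2.46% of all windows. It also held 1 E-box of another form (CACATG), and Robo2 held 1 of the form CAGCTG. An E-box of any form occurs in 66.2% of all windows and CAGCTG in 13.0%. CAGATG, which occurs in 14.4% of all windows, was not found in the 4. The letters ACAAAG, in 16.5% of all windows, were not found there either. RefSeq lists further starts of Robo2 upstream of this window.

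Semaphorins were the most abundant of the guidance ligands, and their composition differed between the cell types. Their summed level was 169 to 200 TPM in Merkel libraries, against 327 to 376 in basal libraries. Sema3e, a secreted semaphorin that binds plexin D1 without a neuropilin, was higher in Merkel cells, whereas Sema3f and Sema3c, secreted ligands that use neuropilins, were lower. Of 15 semaphorins tested 1 was called higher and 2 lower, and 5 of 20 were too low to test.

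Sema3e (chromosome 5, 14025276 to 14256689, mm10) was at 19.1, 13.2 and 17.5 TPM in the Merkel libraries of numbers 1 to 3. In the first basal libraries it was at 1.3, 1.07 and 0.82 TPM, and in the second at 2.74, 1.56 and 1.59. All 3 Merkel libraries lay far above all 6 basal ones, and in each number the second basal library was above the first. Mean levels were 16.6 ± 3.07 TPM against 1.51 ± 0.442 (SD, n = 3 against 3), a ratio of 11. The log2 fold change was 2.83 ± 0.18 (SE, adjusted p = 5.3e-06). Sema3e made up 12.4% to 16.1% of the summed class 3 semaphorin level in Merkel libraries. Its share was 0.362% to 1.21% in basal libraries.

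Sema3f was the most abundant gene of all 69 in both cell types. It was at 62.9, 58.6 and 56.8 TPM in Merkel libraries, at 158, 153 and 167 in the first basal libraries and at 164, 196 and 181 in the second. The Merkel libraries differed little from each other and all lay below the basal ones. Its log2 fold change was -1.50 ± 0.11 (adjusted p = 1.4e-05), and basal keratinocytes held 2.86 times the Merkel level. Sema3c, a second neuropilin ligand, was at 13.1, 16.3 and 14.9 TPM in Merkel libraries and at 28.8 to 50.9 in basal libraries, again without overlap (log2 fold change -1.24 ± 0.16, adjusted p = 0.00046). Sema3d lay in the same direction by less than 2-fold (log2 fold change -0.58 ± 0.16, adjusted p = 0.017). For Sema3a, the founding repellent of this class, the values were 5.26 ± 1.68 against 4.74 ± 1.33 TPM, with a 95% interval of the log2 difference from -0.31 to 0.76.

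The membrane-bound class 4 semaphorins were lower in Merkel cells by less than 2-fold. At an adjusted p under 0.05, 4 of the 5 tested were lower (Sema4a, Sema4b, Sema4c and Sema4d), and in all 4 each Merkel library lay below each basal library. This separation held for 15 of the 50 guidance genes (30.0%), beside 26.2% of the 13822. Sema4b had the largest of these differences, with 21.9, 18.04 and 21.3 TPM in Merkel libraries, against 37.1 to 44.6 in basal libraries (log2 fold change -0.99 ± 0.12, adjusted p = 0.00029). Among the transmembrane classes 5 and 6, Sema5a was lower and Sema6c higher, both by less than 2-fold (-0.59 ± 0.19 and 0.46 ± 0.14, adjusted p = 0.034 and 0.029).

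**Figure D2:**
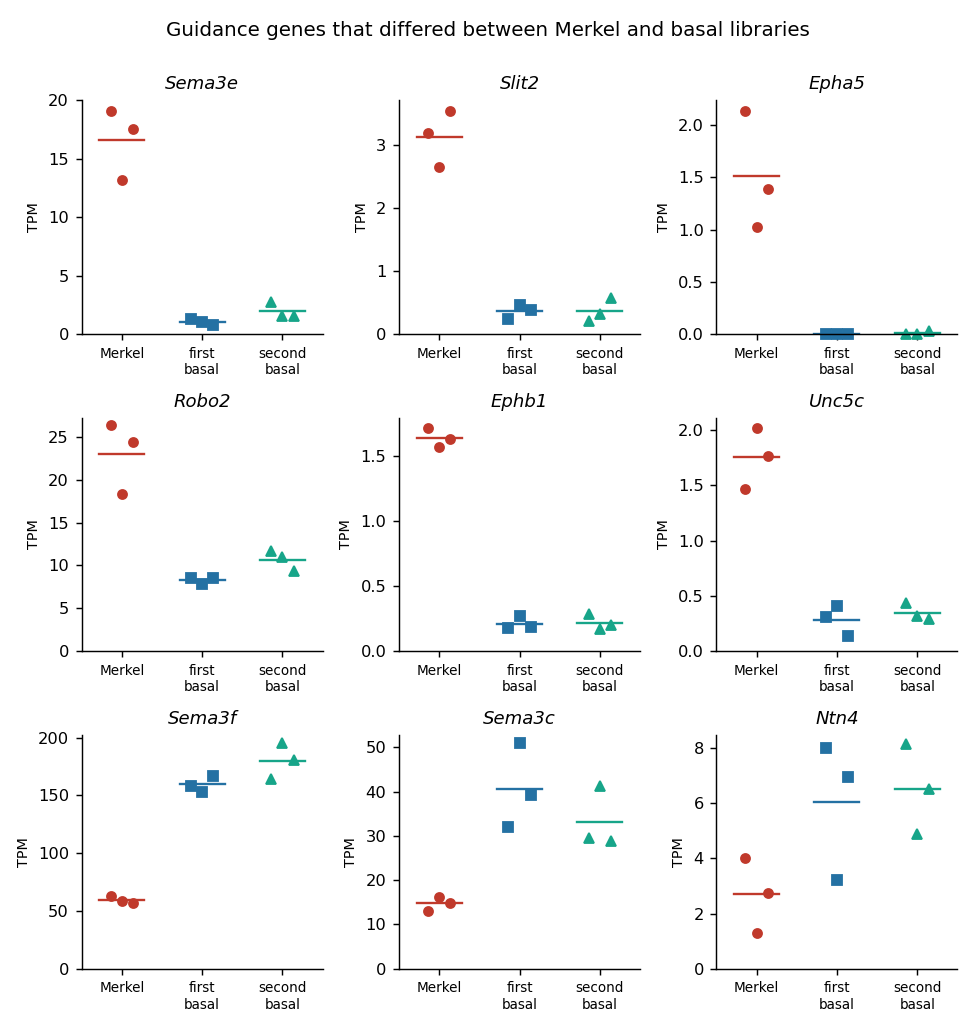
TPM of the 9 called guidance genes in each of the 9 libraries, on linear axes that start at 0; points are libraries in the order of sample numbers 1 to 3 and lines are group means. The top 6 genes have all Merkel libraries above all basal libraries, Sema3f and Sema3c have them below, and for Ntn4 the groups overlap.

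The plexins, the receptors of semaphorins, lay below basal keratinocytes together. All 7 tested plexins had a lower level in Merkel cells at an adjusted p under 0.05, beside 28.5% of all genes tested, and 0 of them reached 2-fold by limma. In 5 the Merkel libraries lay below all basal libraries, beside 26.2% of all genes. The summed plexin level was 86.2 to 105 TPM in Merkel libraries, against 158 to 193 in basal libraries. Plxnb2, a receptor of class 4 semaphorins and the most abundant plexin, was at 37.0, 36.7 and 44.4 TPM against 57.9 to 70.5 (log2 fold change -0.66 ± 0.12, adjusted p = 0.0024). Plxnb1, the receptor of Sema4d, had the largest difference (14.9 ± 2.88 against 30.3 ± 2.04 TPM, -0.99 ± 0.15, adjusted p = 0.0011). Plxna1 and Plxna2, co-receptors of neuropilins for class 3 semaphorins, followed at -0.92 ± 0.14 and -0.74 ± 0.12. With median-ratio scaling or quantile normalization 6 of 7 kept an adjusted p under 0.05. Against the first basal libraries alone 6 did, and against the second alone 5 did. Plxnd1 did not pass against either kind alone (adjusted p = 0.108 and 0.0512). Plxnc1 did not pass against the second (log2 fold change -0.11, adjusted p = 0.641).

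Plxnd1, the receptor that Sema3e binds, was at 3.86, 3.02 and 3.29 TPM in Merkel libraries. It was at 13.1, 3.05 and 8.25 in the first basal libraries and at 3.70, 6.83 and 6.50 in the second. The basal values were widely spread and overlapped the Merkel values (log2 fold change -0.73 ± 0.18, adjusted p = 0.010). Within a library the level of Sema3e was 4.36 to 5.33 times that of Plxnd1 in Merkel cells and 0.099 to 0.741 times that in basal keratinocytes.

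Neuropilins went the other way from plexins. Nrp1 was at 13.4, 9.23 and 12.8 TPM in Merkel libraries, against 5.0 to 7.59 in basal libraries, without overlap (log2 fold change 0.80 ± 0.16, adjusted p = 0.0033). Nrp2, the preferred neuropilin of Sema3f, was at 17.5, 9.63 and 16.9 TPM in Merkel libraries. It was at 8.0, 6.86 and 5.61 in the first basal libraries and 14.3, 7.96 and 10.48 in the second. These ranges overlap, and the fit gave 0.68 ± 0.23 (adjusted p = 0.041). Both differences were under 2-fold.

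**Figure D3:**
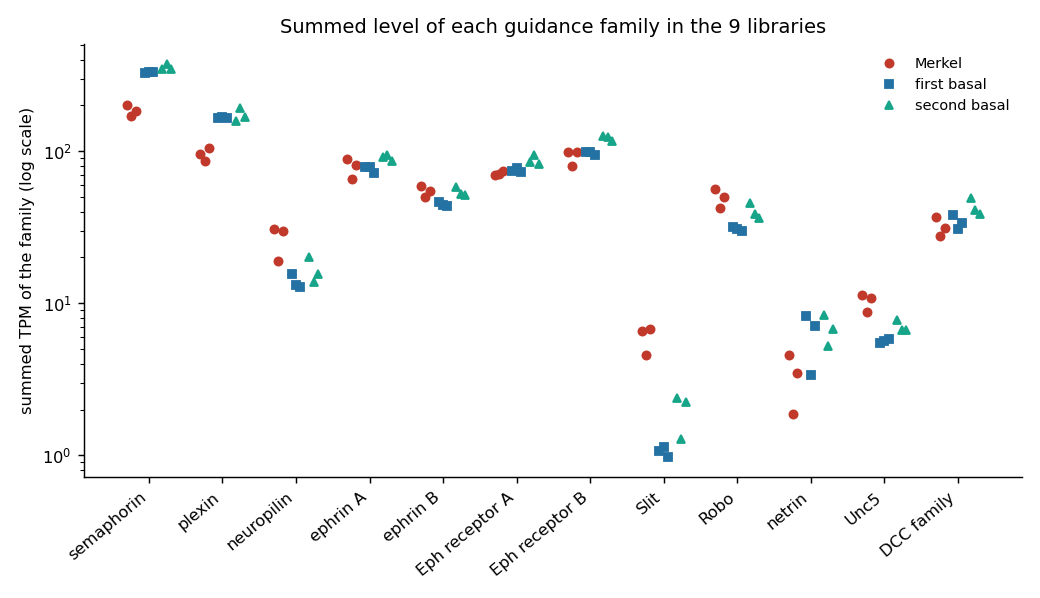
Summed TPM of each guidance family in every library, on a log axis; each family has the 3 Merkel, 3 first basal and 3 second basal libraries side by side. Semaphorin and plexin sums are lower in Merkel libraries, Slit and Unc5 sums are higher, and ephrin and Eph receptor sums overlap.

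The summed levels of the ephrins overlapped between the cell types. Of the 8 ephrins, all tested, 0 were called by limma. At an adjusted p under 0.05 there was 1 higher and 1 lower, and at an unadjusted p under 0.05 2 higher and 1 lower. Efna1, the most abundant ephrin, was at 39.8, 23.7 and 35.0 TPM in Merkel libraries, against 37.3 to 45.5 in basal libraries, with a 95% interval of the log2 difference from -0.73 to 0.08. Efnb1 was at 33.5, 25.7 and 35.3 TPM against 24.7 to 35.5, with an interval from -0.24 to 0.42. Efnb3, a low-level ephrin B, was higher by less than 2-fold (1.64 ± 0.436 against 0.597 ± 0.0208 TPM, log2 fold change 0.72 ± 0.15, adjusted p = 0.0048). It too was tested through its Merkel values alone. Efna5, known for mapping of sensory axons, was lower by less than 2-fold (-0.68 ± 0.16, adjusted p = 0.0084).

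The 4 most abundant Eph receptors did not pass the test, and the 2 that were called, Epha5 and Ephb1, were receptors of low level. Epha4, a receptor that binds ephrins of both types, was at 24.6, 29.0 and 28.2 TPM in Merkel libraries, against 25.8 to 37.6 in basal libraries (95% interval of the log2 difference -0.43 to 0.13). Ephb4, a receptor of Efnb2, was at 45.3, 30.5 and 41.7 TPM against 34.9 to 59.8 (interval -0.60 to 0.14). Epha1 and Ephb6, the latter a receptor without kinase activity, had intervals from -0.47 to 0.07 and -0.43 to 0.19. Epha2 and Ephb3 were lower by less than 2-fold (-0.53 ± 0.14 and -0.65 ± 0.14, adjusted p = 0.015 and 0.0060).

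Epha5, a receptor of ephrin A ligands known from retinal and hippocampal wiring, was at 2.13, 1.02 and 1.39 TPM in Merkel libraries. In basal keratinocytes it was listed at 0 in 5 libraries and at 0.03 TPM in 1. The log2 fold change was 1.3 ± 0.17 (adjusted p = 0.00040). Ephb1, a receptor of ephrin B ligands, was at 1.72, 1.57 and 1.63 TPM against 0.17 to 0.29 (1.12 ± 0.12, adjusted p = 0.00011). With quantile normalization the Ephb1 difference was 0.91 and short of 2-fold. Epha7 was at 2.48, 3.3 and 3.02 TPM in Merkel libraries, at 0.49, 0.58 and 0.84 in the first basal libraries and at 1.84, 2.48 and 2.09 in the second. Its Merkel values thus stood apart from the first basal libraries and touched the second (log2 fold change 0.80 ± 0.14, adjusted p = 0.0019).

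Slit2 and the Slit receptor Robo2 were higher in Merkel cells. The summed Slit level was 4.54 to 6.82 TPM in Merkel libraries, against 0.97 to 2.39 in basal libraries. Slit2 was at 3.19, 2.65 and 3.54 TPM against 0.21 to 0.57, and its first and second basal libraries had the same mean of 0.367 TPM (log2 fold change 1.59 ± 0.14, adjusted p = 4.5e-05). Slit3 was at 2.81, 1.53 and 2.75 TPM in Merkel libraries, at 0.64, 0.44 and 0.50 in the first basal libraries and at 1.62, 0.69 and 1.36 in the second. The lowest Merkel value of Slit3 lay below the highest basal one, and the difference was under 2-fold (0.86 ± 0.19, adjusted p = 0.0068). Against the second basal libraries alone Slit3 had an adjusted p of 0.057. Slit1 was too low to test, at 0.36 to 0.54 TPM in Merkel libraries against 0.08 to 0.56.

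Robo2 was at 26.3, 18.3 and 24.3 TPM in Merkel libraries, at 8.59, 7.86 and 8.53 in the first basal libraries and at 11.7, 10.9 and 9.31 in the second. Every Merkel library was above every basal library (22.96 ± 4.17 against 9.48 ± 0.609 TPM, log2 fold change 1.19 ± 0.15, adjusted p = 0.00036). Robo1, its close relative, was at 30.3, 23.8 and 25.4 TPM in Merkel libraries, against 21.2 to 33.7 in basal libraries, with a log2 difference of 0.04 (95% interval -0.25 to 0.33). The ratio of Robo2 to Robo1 within a library was 0.767 to 0.957 in Merkel cells and 0.34 to 0.403 in basal keratinocytes. Robo3 and Robo4, the latter known from endothelium, were at 0.08 TPM or less in all 9 libraries.

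Among netrins and their receptors, Ntn4 and Unc5c differed. Ntn4, a basement membrane netrin, was at 4.03, 1.29 and 2.76 TPM in Merkel libraries. It was at 8.02, 3.20 and 6.95 in the first basal libraries and 8.14, 4.90 and 6.53 in the second. The groups overlap, because number 2 was lowest in all 3 kinds of library, and within each number the Merkel library was below both basal ones. The log2 fold change was -1.0 ± 0.31 (adjusted p = 0.027), a call lost in 7 of its 14 alternatives, more than any other of the 9. With sample number as a block, which pairs the libraries, it was -1.0 ± 0.13 with an adjusted p of 5.7e-05. It was lost without Merkel replicate 2 (-0.70, adjusted p = 0.091) or Merkel replicate 3 (-1.05, adjusted p = 0.070), without basal replicate 1 (adjusted p = 0.071) or basal replicate 3 (adjusted p = 0.073), and with median-ratio scaling (-0.87).

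Unc5c, a receptor that mediates repulsion by netrin-1, was at 1.47, 2.02 and 1.77 TPM in Merkel libraries against 0.14 to 0.44 in basal libraries (log2 fold change 1.06 ± 0.13, adjusted p = 0.00034). It fell just short of 2-fold without Merkel replicate 2 (0.99) and with quantile normalization (0.87). Unc5b, the most abundant of its family, was at 9.44, 6.36 and 8.66 TPM against 5.14 to 7.23, with adjusted p = 0.071 and a 95% interval from 0.04 to 0.74. Neo1, neogenin, was at 36.5, 26.9 and 30.8 TPM against 30.7 to 49.2 and carried 98.0% or more of the summed DCC family level in all libraries.

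The 19 genes too low to test reached at most 1.03 TPM in any library. In 8 of them each Merkel library was above each basal library: Dcc, Epha3, Epha6, Unc5d, Ntn1, Ntn5, Sema4f and Sema7a. Over the 50 tested genes 8 were separated in this way (16.0%), against 11.7% of all genes tested. Among these 8 tested genes were Epha5, Ephb1, Slit2, Unc5c and Efnb3, which were tested through their Merkel values alone. The separation of these 5 is largely set by the filter. Both shares cover tested genes only. No share over all genes too low to test was computed, so the 8 of 19 have no background beside them. Dcc, the attractive netrin receptor, was at 0.20, 0.56 and 0.32 TPM in Merkel libraries and was listed at 0 or 0.01 in the 6 basal libraries. Sema4f was at 0.68, 0.54 and 0.78 TPM against 0 to 0.02, and Ntn1, the founding netrin, at 0.48, 0.51 and 0.65 against 0.14 to 0.34. In 5 of the 19, Ntn5 among them, no library reached 0.1 TPM. These values were not tested.

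Other genes of these pathways, together with further guidance cues and receptors, were taken from lists of 137 genes, of which 118 were tested. Of these 22 were called higher (18.6%, beside 6.79% of all genes tested) and 5 lower (4.24%, beside 5.27%), with a median log2 fold change of -0.13. The 22 include genes tested through their Merkel values alone, whose calls are largely set by the filter. Among the genes named here and in the next paragraph, these are Crmp1, Chn1, Draxin, Dscaml1, Stmn2, Gap43, Rtn4rl2, Ror2 and Nrcam. The further cues and receptors gave 10 of the 22. In the semaphorin and plexin list 6 of 24 tested genes were higher and 3 lower. Its strongest were the collapsin response mediators, cytoskeletal adaptors of semaphorin signalling: Crmp1 (log2 fold change 3.78 ± 0.14, adjusted p = 3.0e-07), Dpysl3 (3.22 ± 0.14) and Dpysl2 (2.36 ± 0.14). Lower were Fes, Met and Mst1r, tyrosine kinases of which Met and Mst1r can partner with B plexins. In the Eph and ephrin list 1 of 22 was higher, Chn1, which encodes a Rac inhibitor downstream of Epha4 (1.96 ± 0.16). The Slit and Robo list had 0 of 13 called by limma in either direction, with 4 lower at an adjusted p under 0.05 and 1 higher and 5 lower at an unadjusted p under 0.05.

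In the netrin list 2 of 16 were higher and 0 lower: Draxin, a secreted ligand of Dcc (2.71, 1.83 and 2.63 TPM against 0 to 0.03), and Dscaml1. Of 21 tested cytoskeletal effectors 3 were higher and 1 was lower (Ssh2), the 3 being the growth cone and microtubule genes Stmn2, Map1b and Gap43, with log2 fold changes of 2.22, 2.02 and 1.36. In the list of other guidance cues and receptors 10 of 23 were higher and 1, Cdon, was lower. Its smallest adjusted p belonged to Rtn4rl2, a Nogo receptor homologue (2.60 ± 0.13), Ror2, a Wnt5a receptor (2.58 ± 0.15), and the adhesion gene Nrcam (2.54 ± 0.17).

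The 2 kinds of basal library differed in 3 guidance genes. Sema6a and Sema3b were higher and Plxnc1 was lower in the second than in the first libraries, 4.0% and 2.0% of the 50, beside 0.629% and 2.92% of all genes tested. Sema6a, a transmembrane ligand of A plexins, was at 5.0, 3.24 and 4.23 TPM in the first libraries and 14.3, 8.29 and 10.1 in the second, with Merkel libraries in between at 9.61, 6.60 and 6.19 (log2 difference 1.19 ± 0.22, adjusted p = 0.025). Sema3b was at 1.38, 1.74 and 1.62 TPM in the first and 5.93, 3.33 and 5.06 in the second libraries, and at 5.85, 3.03 and 4.81 in Merkel libraries (1.14 ± 0.19, adjusted p = 0.017). Plxnc1, the receptor of Sema7a, was at 8.14, 5.21 and 5.08 TPM in the first and 2.69, 3.15 and 1.79 in the second libraries, and at 2.01, 2.31 and 2.39 in Merkel libraries (-1.0 ± 0.22, adjusted p = 0.046). Epha7 was higher in the second libraries by slightly less than 2-fold (0.94 ± 0.12, adjusted p = 0.0089). With Efna2 and Efna4, 5 members were higher at an adjusted p under 0.05, 10% of the 50 beside 3.36% of all genes tested. All 3 calls were lost without sample number 1 and without number 3, fits in which 0 and 1 of all 13822 genes were called by limma. The log2 differences in those fits were 1.11 and 1.24 for Sema6a, 0.93 and 1.10 for Sema3b, and -0.85 and -0.95 for Plxnc1. Without number 2 Plxnc1 alone lost its call (-1.22, adjusted p = 0.057).

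**Figure D4:**
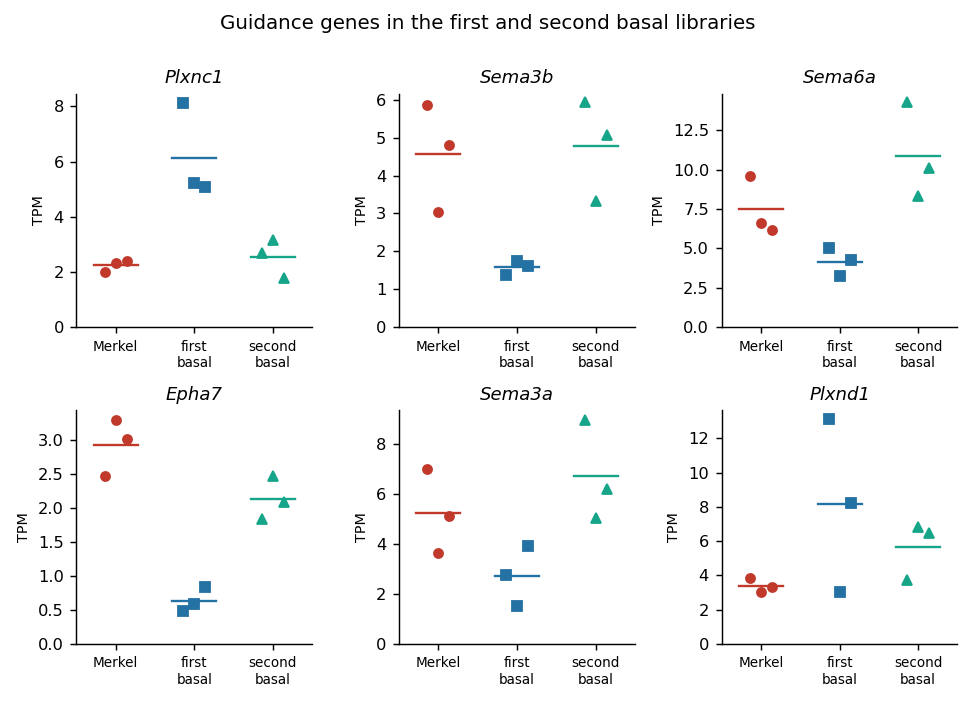
TPM of 6 guidance genes in each library, on linear axes that start at 0; points are libraries in the order of sample numbers 1 to 3 and lines are group means. For Plxnc1 the first basal libraries stand above the other two kinds, for Sema3b and Epha7 they stand below, and Plxnd1 varies widely among basal libraries.

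Against each kind of basal library alone, which share the same Merkel libraries, the values of such genes were unlike. Epha7 was at a log2 fold change of 1.27 against the first and 0.33 against the second libraries. Sema3b was at 1.08 and -0.06, Sema6a at 0.71 and -0.48, Plxnc1 at -1.12 and -0.11, and Slit3 at 1.12 and 0.60. The 6 genes called higher over both kinds were also called against each kind alone. Of the 3 lower genes Ntn4 was not called against the first libraries alone (-0.93, adjusted p = 0.067).

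Markers of other cells moved with some of these differences. The summed level of 8 macrophage and Langerhans cell markers was 766 to 1067 TPM in the first basal libraries, 50.6 to 250 in the second and 54.1 to 136 in Merkel libraries, with Cd74 the most abundant. This order matches that of Plxnc1, and Fes had values of 10.9 to 20.6 TPM in the first basal libraries and was between 1.67 and 3.17 in the other libraries. The 7 hair follicle markers summed to 682 to 818 TPM in the first basal libraries, 1563 to 2001 in the second and 1739 to 1979 in Merkel libraries (most abundant Krt17), the order of Sema3b and Epha7. The 7 melanocyte markers summed to 16.6 to 36.4, 112 to 162 and 159 to 224 TPM (most abundant Dct). Of these 7, 6 were called higher in Merkel libraries when both kinds of basal library were averaged. The part of these cells in the differences was not tested.

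Sox2 is also active in cells of the dermal papilla and in Schwann cells, which a GFP gate could hold. Of 12 fibroblast and dermal papilla markers 10 were tested and 8 were called higher in Merkel libraries, with Col3a1 at 24.4 to 36.1 TPM against 0.55 to 1.37, Pdgfra at 5.15 to 7.14 against 0.01 to 0.17 and Corin at 8.37 to 10.3 against 0.10 to 0.14. Pdgfra and Corin were tested through their Merkel values alone. The 12 summed to 341 to 521 TPM in Merkel libraries, against 279 to 911 in basal libraries, carried by Dcn and Vim, and 0 of the 12 were at 0 in all Merkel libraries. Vim was lower by less than 2-fold (log2 fold change -0.74 ± 0.21, adjusted p = 0.019). It was at 107 to 175 TPM, against 350 to 801 in the first and 78.4 to 160 in the second basal libraries. Dcn did not pass the test (0.35 ± 0.36, adjusted p = 0.48). Of 8 Schwann cell markers 5 were tested and 1, S100b, was called higher, tested through its Merkel values alone. Sox10 was higher by less than 2-fold (0.65 ± 0.23, adjusted p = 0.047). Its Merkel values were 3.03 to 6.36 TPM, against 0.45 to 1.08 in the first and 4.47 to 5.97 in the second basal libraries. The sum of the 8 was 46.1 to 64.1 TPM against 40.4 to 60.2, most of it Erbb3. Whether Slit2, Sema3e or the other genes called higher come in part from such cells was not tested.

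Sensory neurons have endings that contact Merkel cells. Of 9 markers of these neurons, Nefl, Nefm, Nefh, Prph and Scn9a were at 0.15 TPM or less in all Merkel libraries and Scn10a was at 0; the summed level of 110 to 154 TPM was carried by Tubb3 and Avil, which were both called higher. Endothelial, T cell and muscle markers summed to at most 4.01, 4.84 and 1.71 TPM in Merkel libraries, against at most 1.82, 2.91 and 0.99 in basal libraries. The 1 tested marker of each list was higher by less than 2-fold at an adjusted p under 0.05. These were Pecam1 (log2 fold change 0.97), Trac (0.80) and Tagln (0.52), each tested through its Merkel values alone. The 6 suprabasal keratinocyte markers had 0 called by limma, 0 at an adjusted p under 0.05 and 0 higher and 0 lower at an unadjusted p under 0.05, and their sums overlapped (4712 to 9044 TPM in Merkel and 4665 to 9033 in basal libraries, most of it Krt1). The labelled cell types carried most of their listed markers. Sox2, Ly6a (SCA1) and Itga6 (CD49F) are among these markers and are not independent of the sort, which used them. Ly6a values overlapped, at 6.78 to 21.8 TPM in Merkel libraries against 17.1 to 45.4 in basal libraries. All 10 Merkel cell markers were called higher and summed to 1042 to 1368 TPM against 2.65 to 5.96. The 7 basal keratinocyte markers summed to 4553 to 5097 TPM in Merkel libraries, against 12844 to 17362 in basal libraries, 6 of them called lower.

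Merkel replicate 2 stood apart in composition. Small, structural and mitochondrial RNAs held 53.4% of its TPM, against 40.6% to 46.1% in the other 8 libraries, and it had the lowest level of Sema3e, Robo2, Epha5, Slit2, Ephb1 and Ntn4 among Merkel libraries, though not of Sema3f, Sema3c or Unc5c. Without it 6 guidance genes were called higher, with Slit3 (1.05) in place of Unc5c, and 2 lower.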

How the data were processed

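Total RNA was made into strand-marked libraries and sequenced from both ends, per the labels' protocols. Trimmomatic, STAR, RSEM and build mm10 are named in the submitters' processing notes, used here without versions. The annotation and strand setting were not given in the sources used here. Deposited values are TPM per gene in 1 table, written by the authors with 2 decimals, so depth is unknown.

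Identifiers were matched to GENCODE M21 without version (49412 matched, 259 did not). Genes were fitted on log2(TPM + 1) with limma 3.58.1 (R 4.3.3, variance trend, two-sided, Benjamini-Hochberg over 13822 genes), 3 Merkel values against 3 basal values, the latter averaged over the 2 libraries of a number, which leaves out their difference. Levels are mean TPM ± SD. Second and first basal libraries were compared in the same way, 3 against 3. The fit was tested on simulated data, with changes added only to genes of higher level than Epha5, Ephb1, Slit2 and Unc5c. The added changes were also larger than those of Robo2, Sema3c and Ntn4. The simulation therefore does not cover the calls of these genes. Tables and plots used Python 3.11.15, pandas 2.3.3 and matplotlib 3.10.9.

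Sample numbers come from the titles. Same-numbered Merkel and basal values deviated together (correlations 0.385, 0.357 and 0.202 across genes, which are not independent replicates), so the numbers pair the samples; a fit with the number as a block stands beside the unblocked one. First and second basal libraries of a number also deviated together (0.474, 0.532 and 0.376).

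Members and lists were chosen with earlier results of these data known. Named with their values are called members, the most abundant member of each family, the 3 called genes with the smallest adjusted p in each pathway list and the most abundant marker of each other cell type. The other members and markers that carry values were chosen after their values were seen. Of 50 tested members 5 overlap another tested gene (Epha1, Efnb2, Plxna1, Plxna2 and Sema4c), and their values are uncertain to that extent. Alternatives were another pseudocount, filter, scaling, gene set, basal library kind, the block, and leaving out each replicate.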

Additional observations from a re-analysis of the deposited data

Results flagged for a closer look

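The 6 basal libraries of each of the 50 tested members were checked for a value far from the others, which chance alone finds in about 1 in 20 groups. The check found 1: Epha5 was at 0.03 TPM in the second basal library of number 3 and was listed at 0 in the other 5.

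The difference between Merkel cells and basal keratinocytes depended on the kind of basal library for 3 members, by the direct comparison of the second with the first libraries in limma. The log2 difference, second minus first, was 1.19 for Sema6a (adjusted p = 0.025), 1.14 for Sema3b (adjusted p = 0.017) and -1.0 for Plxnc1 (adjusted p = 0.046). All 3 second libraries lay above all 3 first libraries for Sema6a and Sema3b and below them for Plxnc1.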

How the results depend on the processing

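The count of 6 members called higher was 9 with a pseudocount of 0.1 or against the first basal libraries, 4 with quantile normalization, and 2 with a filter at 5 TPM, which leaves 34 members. It was 8 with mitochondrial and small RNA genes removed, where Epha7 (1.04) and Slit3 (1.13) were added. It was 6 in each fit that left out a replicate. The count of 3 lower was 5 with a pseudocount of 0.1 or against the second basal libraries, and 2 to 5 with a replicate left out. Sema3e, Slit2, Robo2, Epha5, Sema3f and Sema3c kept their call in each setting that tested them; Sema3e ranged from 2.58 to 3.45 and Epha5 from 1.12 to 3.89, the highest with the smaller pseudocount. Over all genes 56.3% of calls were upward, 70.1% with median-ratio scaling and 48.2% with a pseudocount of 0.1. The count of 7 plexins was 6 to 7 with a replicate left out. With sample number as a block the counts for Merkel cells stayed 6 and 3; between the kinds of basal library Sema3a was added (log2 1.07, adjusted p = 0.032), which made 4 called in place of 3. That count was 1 with a filter at 5 TPM, 0 with no filter and 0 to 2 with a number left out. Signs turned in members that were not called. Against the second basal libraries Sema3a (-0.31), Sema3b (-0.06), Sema6a (-0.48), Efna2 (-0.15) and Ephb2 (-0.017) turned negative. Efna4 (0.16) and Sema4g (0.015) turned positive against the first basal libraries. Efnb1 was at -0.042 and Robo1 at -0.15 against the second basal libraries, Robo1 ranged from -0.056 (without Merkel replicate 1) to 0.11 (without Merkel replicate 2) with a replicate left out and was at -0.01 without basal replicate 3, and Epha4 at 0.030 with median-ratio scaling and 0.044 with quantile normalization. The causes of these changes were not tested. Depth is unknown, which limits the members under 1 TPM most.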

Other observations

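On chromosome 5 of mm10, 4 class 3 semaphorin genes lie on the plus strand in the order Sema3d, Sema3a, Sema3e and Sema3c. Gaps of 536.5 kb and 422.7 kb part the first 3 genes, and 3317.6 kb lie between Sema3e and Sema3c. Their log2 fold changes in that order were -0.58, 0.23, 2.83 and -1.24. Sema3e was called higher and Sema3c lower, and the 95% interval of Sema3a included 0. Mean Merkel levels were 10.2, 5.26, 16.6 and 14.7 TPM, and mean basal levels were 15.8, 4.74, 1.51 and 36.9.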
